A study of Mus musculus with 8 samples.

Results

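The 10 genes described here mark the sinusoidal endothelium of the liver and were compared between young *Rragc*S74N/+ and *Rragc*+/+ mice. They were *Pecam1*, *Lyve1*, *Stab1*, *Stab2*, *Clec4g*, *Kdr*, *Oit3*, *Fcgr2b*, *Gpr182* and *Eng*, chosen by name, and all 10 were among the 14506 genes listed in the table of normalized read counts. RNA came from whole livers of 8 mice, 4 of each genotype. *Rragc*+/+ mice carried both unedited alleles of *Rragc*, whose product RagC is a small GTPase through which nutrients act on mTORC1. *Rragc*S74N/+ mice carried on 1 allele a serine-to-asparagine substitution made by Cas9 editing, which came with silent changes nearby and was present in the whole body, not in endothelium alone. Replicates 1 to 3 of *Rragc*+/+ and replicates 1 and 2 of *Rragc*S74N/+ were 3 months old. Replicate 4 of *Rragc*+/+ and replicate 3 of *Rragc*S74N/+ were 2.5 months old, and replicate 4 of *Rragc*S74N/+ was 2 months old. Sex is not given by the labels, and mice received no treatment that the labels name.

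Liver sinusoids are lined by a fenestrated endothelium that lacks a continuous basement membrane and lets plasma reach hepatocytes. These cells are the main scavengers of the blood: they take up hyaluronan, collagen fragments, modified lipoproteins and small immune complexes and degrade them in lysosomes. They are also a filter, a source of signals that zonate hepatocytes, and a target of vascular endothelial growth factor (VEGF) and of bone morphogenetic protein 9 (BMP9). The list holds an adhesion molecule shared by all endothelium (*Pecam1*, CD31), scavenger and lectin receptors (*Stab1*, *Stab2*, *Lyve1*, *Clec4g*), the inhibitory Fc gamma receptor *Fcgr2b*, growth factor receptors (*Kdr*, which encodes VEGF receptor 2, and *Eng*, which encodes the BMP9 co-receptor endoglin), the seven-transmembrane receptor gene *Gpr182*, and *Oit3*, which encodes a secreted or membrane-bound zona pellucida domain protein.

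*Eng*, *Stab1* and *Stab2* are the members with the 3 most negative log2 fold changes, so their promoters are shown. RefSeq promoters (250 bases before to 50 after the start, GRCm38.p6) were found for 6 members, *Fcgr2b*, *Eng*, *Kdr*, *Clec4g*, *Stab2* and *Stab1*. *Pecam1*, *Lyve1*, *Oit3* and *Gpr182* were not matched. Capitals mark AGGAAG or its reverse complement CTTCCT, a sequence of the kind bound by ETS factors, which are active in endothelium.
Eng (chr2:32646345-32646644, forward strand): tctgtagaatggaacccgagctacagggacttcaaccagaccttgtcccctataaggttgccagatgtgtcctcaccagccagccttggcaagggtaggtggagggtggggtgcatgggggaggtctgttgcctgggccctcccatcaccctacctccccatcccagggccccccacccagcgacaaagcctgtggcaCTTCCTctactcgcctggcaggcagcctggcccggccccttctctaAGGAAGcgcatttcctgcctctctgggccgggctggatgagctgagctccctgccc
Stab1 (chr14:31168592-31168891, reverse strand): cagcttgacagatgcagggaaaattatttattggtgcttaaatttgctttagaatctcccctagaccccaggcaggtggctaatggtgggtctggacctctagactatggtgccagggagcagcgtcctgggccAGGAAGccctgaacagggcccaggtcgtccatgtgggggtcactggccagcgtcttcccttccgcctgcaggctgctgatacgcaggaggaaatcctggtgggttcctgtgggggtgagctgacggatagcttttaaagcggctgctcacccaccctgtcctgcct
Stab2 (chr10:87007893-87008192, reverse strand): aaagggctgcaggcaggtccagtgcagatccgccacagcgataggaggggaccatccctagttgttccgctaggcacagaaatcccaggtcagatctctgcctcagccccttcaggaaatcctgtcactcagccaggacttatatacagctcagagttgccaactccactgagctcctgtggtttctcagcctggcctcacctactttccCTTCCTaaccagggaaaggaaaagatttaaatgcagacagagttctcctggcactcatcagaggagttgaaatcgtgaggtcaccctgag
The 6 letters were found on either strand in 4 of the 6 promoters, those of *Eng*, *Clec4g*, *Stab2* and *Stab1*, against 35.4% of 32851 promoters of the same length. *Eng* had 2 matches and *Stab1* and *Stab2* had 1 each, none of which overlapped another motif searched. *Clec4g*, whose promoter is not shown, had the most, 3, and *Fcgr2b* and *Kdr* had 0. Whether the motif goes with the log2 fold changes was not tested. The motif AGATAA, of the type bound by GATA factors, was in 0 of the 6 and in 11.2% of all promoters. The E-box CACGTG was in 0 of the 6 and in 7.15% of all promoters. A match is a description of these letters and not a binding site.

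Libraries held between 4313076 and 6632108 reads in listed genes. Libraries were made from transcript 3′ ends, with 1 primed end per transcript whatever its length, so levels can be set side by side between genes without division by transcript length. All 80 member values were above 0, with 4 to 727 reads behind each, and the 10 genes together took 0.0232% to 0.0317% of the reads of a liver. In a whole liver, fewer endothelial cells and less RNA per endothelial cell cannot be told apart. The summed normalized count of the members ran from 1413 to 1754 in *Rragc*+/+ and from 1381 to 1819 in *Rragc*S74N/+ livers, so the genotypes overlapped in this sum. As for the label of the tissue, the summed level of 9 hepatocyte markers was 221509 to 442165 in the 8 livers.

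On GRCm38 (GENCODE M21 gene models) the genes lie at chr11:106654217-106750628 (*Pecam1*), chr7:110850607-110863239 (*Lyve1*), chr14:31139013-31168641 (*Stab1*), chr10:86841198-87008025 (*Stab2*), chr8:3707064-3720651 (*Clec4g*), chr5:75932827-75978458 (*Kdr*), chr10:59422958-59441778 (*Oit3*), chr1:170958617-170976547 (*Fcgr2b*), chr10:127747276-127751732 (*Gpr182*) and chr2:32646595-32682669 (*Eng*). *Eng* is on the forward strand and the other 9 are on the reverse strand, and all 10 code for protein.

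*Kdr* was the most abundant member, at 518 ± 89.9 (SD over 8 livers, normalized read count), and *Gpr182* the least, at 17.9 ± 7.10. Between them stood *Clec4g* (247 ± 48.4), *Eng* (205 ± 65.2), *Stab1* (193 ± 56.7), *Stab2* (175 ± 36.9), *Fcgr2b* (98.0 ± 21.5), *Pecam1* (90.9 ± 36.9), *Lyve1* (56.1 ± 29.6) and *Oit3* (34.2 ± 22.9), all SD over 8 livers. Of the 9 neighbouring pairs in this order, compared by an exact two-sided test over all sign changes of the within-liver log2 difference, 3 differed beyond their spread after Benjamini-Hochberg adjustment over the 9. These were *Kdr* above *Clec4g* and *Stab2* above *Fcgr2b*, each in 8 of 8 livers (exact adjusted p = 0.0352, mean log2 differences 1.07 and 0.84), and *Pecam1* above *Lyve1* in 7 of 8 (exact adjusted p = 0.0469, 0.74). The neighbours from *Clec4g* through *Eng* and *Stab1* to *Stab2* did not differ beyond their spread, and pairs that were not neighbours were not tested.

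To ask whether the endothelial genes differed between genotypes, all 11174 genes with a mean normalized count of at least 10 were fitted with limma on log2(normalized count + 1). All 10 members passed that filter. No member had a Benjamini-Hochberg adjusted p under 0.05, against 0.00895% of all tested genes. At an unadjusted p under 0.05 there were 3 members, *Pecam1*, *Lyve1* and *Eng*, where the share among all tested genes was 5.17%. On the higher side there were 2 members against 2.37% of tested genes, and on the lower side 1, *Eng*, against 2.8%. A log2 fold change of at least 0.8 in either direction was found in 2 members and in 8.5% of tested genes. The count tools gave 2, *Pecam1* and *Lyve1*, with backgrounds of 5.53% for edgeR and 6.04% for DESeq2, and no member passed adjustment with either, against 0.00895% and 0.0895% of tested genes. There were 5 members with a positive and 5 with a negative log2 fold change, and the median over the 10 was -0.016, beside 0.012 over all tested genes. The genotypes overlapped for each of the 10 members, while 2.94% of all tested genes had groups that did not overlap.

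**Figure D1:**
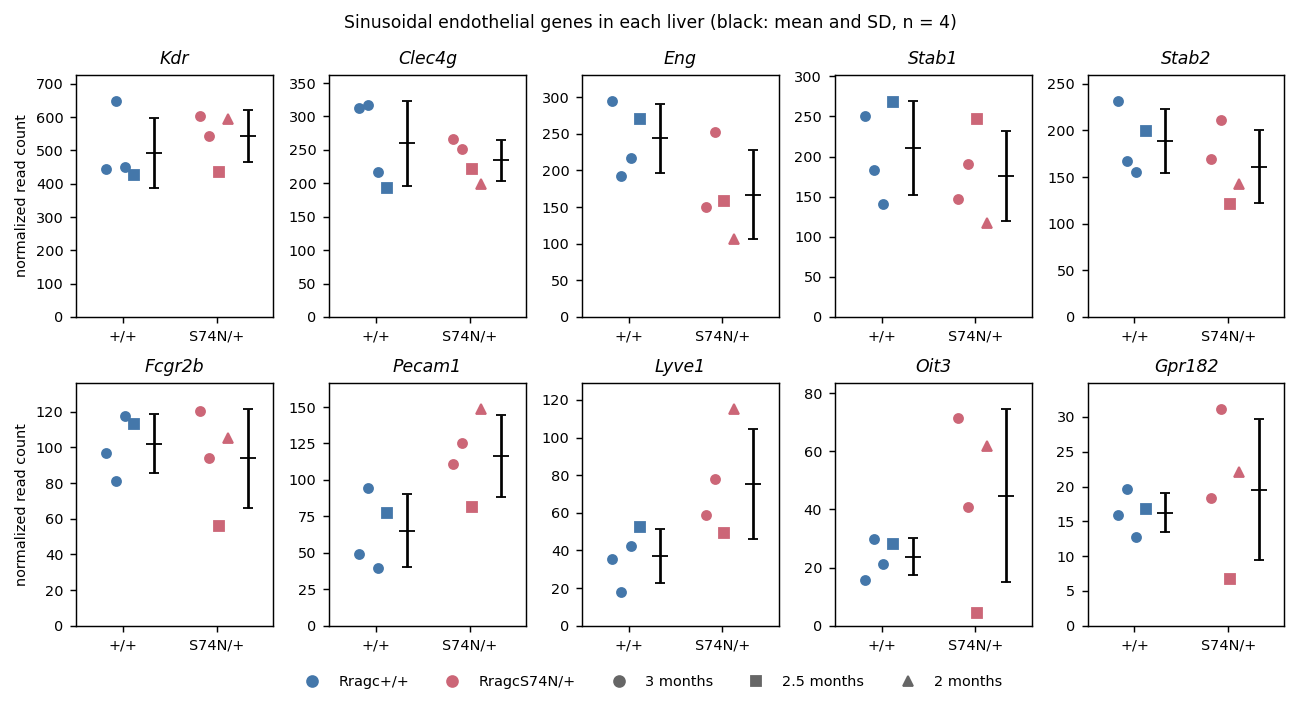
Normalized read count (y axis, from 0) of each of the 10 genes in each liver by genotype (x axis), with symbols for age and black marks for the mean and SD of 4 livers. The *Rragc*S74N/+ points of *Pecam1* and *Lyve1* sit mostly above and those of *Eng* mostly below the *Rragc*+/+ points, with overlap in every panel.

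*Pecam1* was at 49.4, 94.5, 39.6 and 77.5 in *Rragc*+/+ replicates 1 to 4 and at 111, 125, 81.3 and 148 in *Rragc*S74N/+ replicates 1 to 4. In *Rragc*S74N/+, 3 livers were above all *Rragc*+/+ livers, and replicate 3, the 2.5-month-old, lay between *Rragc*+/+ replicates 2 and 4. The means were 65.3 ± 25.2 and 117 ± 28.1 (SD, n = 4 each). The *Rragc*S74N/+ minus *Rragc*+/+ difference was 0.88 on the log2 scale (SE 0.31), with a 95% interval from 0.20 to 1.55 (limma p = 0.0151, adjusted p = 0.846; exact two-sided permutation p = 0.0571). Replicates varied by 38.7% and 24.1% (SD over mean) where counting error alone would give 12.3% and 8.80%. Without *Rragc*+/+ replicate 3, the liver with the lowest value, the log2 fold change was 0.67. *Pecam1* is also carried by platelets and leukocytes. The platelet genes *Itga2b* and *Pf4* differed by 0.30 and -0.19 on the log2 scale (limma adjusted p = 0.885 and 0.955), and the part of these cells in the *Pecam1* difference was not tested.

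*Lyve1*, the hyaluronan receptor of sinusoidal and lymphatic endothelium, was at 35.4, 17.8, 42.4 and 52.3 in *Rragc*+/+ and at 58.8, 78.2, 49.0 and 115 in *Rragc*S74N/+ replicates 1 to 4. Again 3 *Rragc*S74N/+ livers were above every *Rragc*+/+ liver and replicate 3 was not. The log2 difference was 1.03 (SE 0.38), with a 95% interval from 0.22 to 1.84 (limma p = 0.0169, adjusted p = 0.846; exact two-sided permutation p = 0.0571). The 2-month-old *Rragc*S74N/+ replicate 4 had the highest value. Without it the log2 difference was 0.80, and without *Rragc*+/+ replicate 2, the lowest liver, 0.72, and in both fits the unadjusted limma p was over 0.05. Of 4 lymphatic endothelial markers 2 were listed, *Prox1*, which hepatocytes also express, and *Ccl21a*, and their log2 fold changes were 0.045 and 0.074 (limma adjusted p = 0.981 and 0.984).

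*Stab1* and *Stab2* encode stabilin-1 and stabilin-2, large endocytic receptors of which stabilin-2 is the main hepatic receptor for hyaluronan. *Stab1* was at 251, 183, 141 and 268 in *Rragc*+/+ and at 147, 190, 247 and 117 in *Rragc*S74N/+ replicates 1 to 4, and the groups overlapped widely. *Stab2* was at 232, 167, 156 and 199 and at 169, 212, 121 and 143 in the same order. Their log2 fold changes were -0.27 (95% interval -0.89 to 0.34) and -0.24 (-0.75 to 0.28), with limma adjusted p of 0.854 and 0.853. Among 3-month-old mice the *Stab2* difference turned to 0.053. *Clec4g*, which encodes the lectin LSECtin, ranged from 193 to 317 in *Rragc*+/+ and from 198 to 266 in *Rragc*S74N/+ livers, and differed by -0.12 on the log2 scale (95% interval -0.62 to 0.37, limma adjusted p = 0.911).

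*Fcgr2b*, through which sinusoidal endothelium clears small immune complexes, ranged from 81.4 to 117 in *Rragc*+/+ livers. In *Rragc*S74N/+ livers it was at 120, 94.2, 55.7 and 105, and the low value was again replicate 3. Its log2 fold change was -0.16 with a 95% interval from -0.76 to 0.44 (limma adjusted p = 0.903), and 0.067 without that liver. Kupffer cells and B cells carry *Fcgr2b* as well. Of the 5 genes of the other Fc gamma receptors and their partners, *Fcgr1*, *Fcgr3*, *Fcgr4*, *Fcer1g* and *Fcgrt*, none passed the test in either direction, and the median log2 fold change was 0.19. *Fcer1g*, the shared signalling chain, was at 85.0 ± 15.8 and 119 ± 43.3 (SD, n = 4 each; log2 fold change 0.43, limma adjusted p = 0.846), and *Fcgr3* was at 40.4 ± 16.5 and 29.1 ± 9.95 (SD, n = 4 each; -0.41, limma adjusted p = 0.854).

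*Kdr* was the member with the narrowest spread between livers, 1.52-fold from the lowest to the highest. It was at 443, 650, 450 and 427 in *Rragc*+/+ and at 603, 545, 435 and 593 in *Rragc*S74N/+ replicates 1 to 4, which gave a log2 difference of 0.15, SE 0.21 (95% interval -0.29 to 0.60, limma adjusted p = 0.880). *Rragc*+/+ replicate 2 stood apart from the other 3 livers of its genotype. Of 10 VEGF ligand and receptor genes, 8 were listed and tested, and 0 passed the test in either direction. Their median log2 fold change was -0.0040. *Flt1*, the decoy-like VEGF receptor 1, was at 167 ± 39.7 and 149 ± 25.7 in the 2 genotypes in this order (SD, n = 4 each; log2 fold change -0.15, limma adjusted p = 0.896). *Vegfd* was near the floor, from 0 to 30.2, and differed by 1.21 on the log2 scale (limma adjusted p = 0.846).

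*Eng* was at 296, 193, 216 and 270 in *Rragc*+/+ and at 151, 252, 158 and 107 in *Rragc*S74N/+ replicates 1 to 4. Here 3 *Rragc*S74N/+ livers were below every *Rragc*+/+ liver, and replicate 2 was inside their range. The means were 244 ± 47.3 and 167 ± 61.3 (SD, n = 4 each). The *Rragc*S74N/+ minus *Rragc*+/+ difference was -0.59 on the log2 scale (SE 0.27), with a 95% interval from -1.17 to -0.0051 (limma p = 0.0483, adjusted p = 0.846; exact two-sided permutation p = 0.0857). With edgeR and DESeq2 the difference was -0.54 and its unadjusted p was over 0.05. The difference was -0.24 among 3-month-old mice and -0.40 without the 2-month-old liver. Within the gene model of *Eng* the annotation places *Gm26236* on the same strand, which the table lists too, and strand cannot separate reads where both lie.

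The gene for a ligand of endoglin, *Gdf2* (BMP9), which the liver secretes into blood, was also lower on average. It was at 88.6, 79.5, 65.1 and 84.1 in *Rragc*+/+ and at 44.1, 73.8, 49.0 and 33.4 in *Rragc*S74N/+ replicates 1 to 4, with replicate 2 again the one inside the *Rragc*+/+ range. The log2 difference was -0.70, SE 0.29 (limma p = 0.0293, adjusted p = 0.846; exact two-sided permutation p = 0.0571). Of the 17 genes of the BMP9 and endoglin pathway, all listed and tested, 0 passed adjustment in either direction, 8 had a positive and 9 a negative log2 fold change, and the median was -0.095. *Acvrl1*, the ALK1 receptor that pairs with endoglin, differed by 0.054 on the log2 scale (limma adjusted p = 0.981). *Id1* and *Id3*, which BMP signals induce in endothelium and other cells, had log2 fold changes of 0.58 and 0.39 (limma adjusted p = 0.846 and 0.918). *Id2*, *Smad6* and *Smad7* of the same list had log2 fold changes of 0.15, 0.54 and -0.19 (limma adjusted p = 0.887, 0.862 and 0.904). *Id1* was at 171 in the 2-month-old *Rragc*S74N/+ replicate 4 and at 35.8 to 64.0 in the other *Rragc*S74N/+ livers. In *Rragc*+/+ livers *Id1* ranged from 32.7 to 57.0. *Id3* reached 509 and 552 in *Rragc*S74N/+ replicates 1 and 4 and stayed between 36.8 and 260 in the other 6 livers. *Tgfbr3*, the betaglycan gene related to *Eng*, was at 13.7 ± 9.16 and 23.7 ± 10.8 (SD, n = 4 each; log2 fold change 0.87, limma adjusted p = 0.846).

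*Oit3* and *Gpr182* had the fewest reads. *Oit3* was at 15.8, 29.9, 21.2 and 28.0 in *Rragc*+/+ and at 71.6, 40.9, 4.46 and 62.0 in *Rragc*S74N/+ replicates 1 to 4, so that the *Rragc*S74N/+ livers held both the highest values and the lowest. Only 4 reads stood behind the value of replicate 3. The log2 fold change was 0.41 with a 95% interval from -1.06 to 1.87 (limma adjusted p = 0.901) and 1.26 without that liver (limma adjusted p = 0.256). On recovered reads of all 8 livers it was 0.92 with both edgeR and DESeq2 (adjusted p = 0.812 and 0.834). *Gpr182* was at 15.8, 19.6, 12.7 and 16.8 and at 18.4, 31.1, 6.69 and 22.0, again lowest in *Rragc*S74N/+ replicate 3. Its log2 fold change of 0.093 (95% interval -0.97 to 1.15, limma adjusted p = 0.971) turned negative when *Rragc*+/+ replicate 3 or *Rragc*S74N/+ replicate 2 or 4 was left out (-0.012, -0.18 and -0.020).

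**Figure D2:**
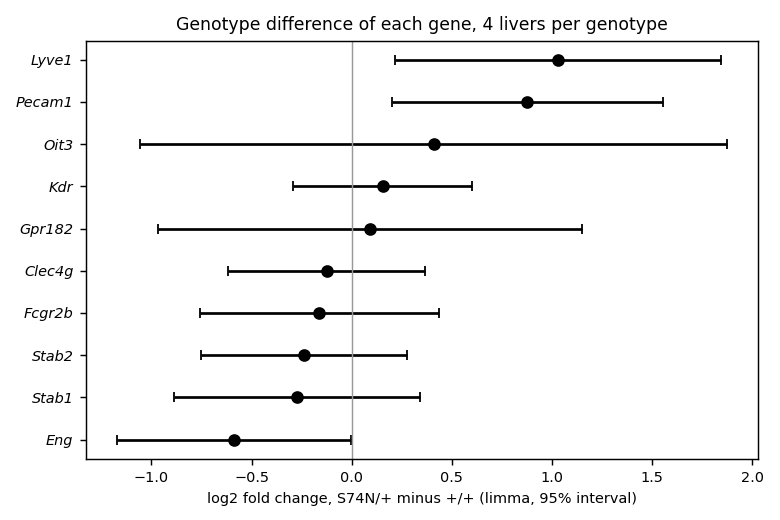
Log2 fold change of each gene (x axis, *Rragc*S74N/+ minus *Rragc*+/+) with its 95% interval from limma, 4 livers per genotype. The intervals of *Lyve1* and *Pecam1* lie above 0 and that of *Eng* below 0, before adjustment over all genes.

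Differences were also taken within an age. Between the 2.5-month-old mice, 1 of each genotype, the log2 difference was 0.068 for *Pecam1* and -0.092 for *Lyve1*, and it was -2.41 for *Oit3*, -1.21 for *Gpr182*, -1.01 for *Fcgr2b*, -0.77 for *Eng* and -0.71 for *Stab2*. Among 3-month-old mice, 2 against 3, it was 1.04 for *Pecam1*, 1.15 for *Lyve1* and 1.29 for *Oit3* (limma adjusted p = 0.841 for each). With age as a factor the log2 difference of *Pecam1* was 0.75 and that of *Lyve1* 0.79 (limma adjusted p = 0.868 for both). The single pair of 2.5-month-old livers has no replicate and its *Rragc*S74N/+ liver is replicate 3, so age cannot be told apart from that liver, and whether the genotypes differ by another amount at that age was not tested. No *Rragc*+/+ mouse was 2 months old, so in replicate 4 of *Rragc*S74N/+ age and genotype cannot be told apart.

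*Rragc*S74N/+ replicate 3 stood low in several genes at once. It held the lowest value of *Stab2*, *Oit3*, *Fcgr2b* and *Gpr182*, and only 1 of its 10 members was above that gene's mean over the 8 livers. The median deviation of the members there was -0.27 on the log2 scale. It was -0.20 in *Rragc*+/+ replicate 3 and -0.023 to 0.33 in the other 6 livers. The median over all tested genes was between 0.014 and 0.028 in every liver. Division by size factors holds that median nearly level by design, so it is no contrast to the members. *Rragc*S74N/+ replicate 3 and *Rragc*+/+ replicate 3 had the fewest reads in listed genes, 5081275 and 4313076. By the mean log2 value of 19 general endothelial genes, those livers were lowest as well. It was 5.32 in *Rragc*S74N/+ replicate 3 and 5.63 in *Rragc*+/+ replicate 3, against 5.68 to 6.03 in the others. By the summed normalized count of the 20 listed ones, *Rragc*S74N/+ replicate 4 was lowest, at 1982. That sum was 2009 in *Rragc*S74N/+ replicate 3 and 2173 in *Rragc*+/+ replicate 3. Not all members followed. *Stab1* in *Rragc*S74N/+ replicate 3 was at 247, near the top of its range.

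**Figure D3:**
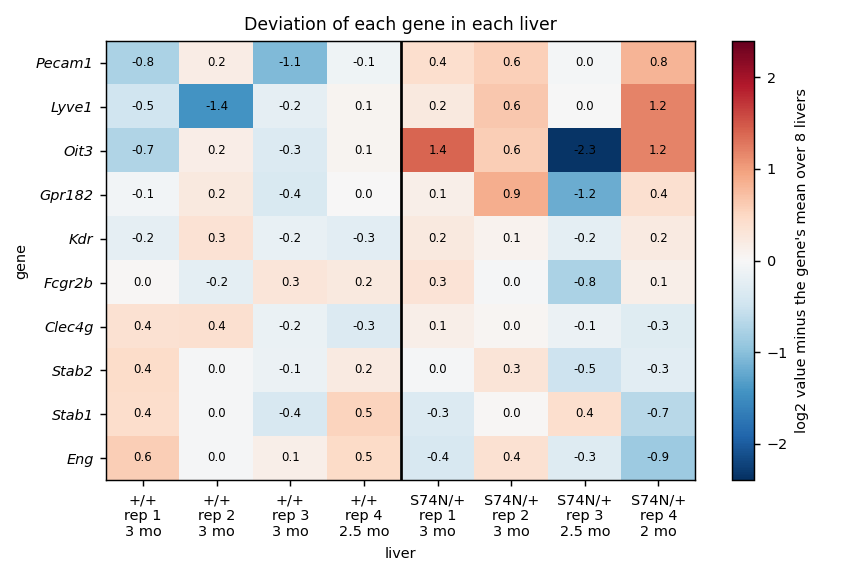
Log2 value of each gene (rows) in each liver (columns, with genotype, replicate and age) minus the mean of that gene over 8 livers, coloured from -2.4 to 2.4. *Pecam1* and *Lyve1* are above their means in *Rragc*S74N/+ replicates 1, 2 and 4, and *Rragc*S74N/+ replicate 3 is below the mean in 9 of 10 genes.

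Since the members did not all differ in 1 direction, their ratios within a liver were compared. A ratio of counts within a liver does not depend on how libraries were scaled. Overlap was called on differences of log2(normalized count + 1), where the added 1 leaves some dependence on scaling, most for low counts. Of the 45 pairs of members, 6 (13.3%) had ratios that did not overlap between genotypes, against 3.08% of 62423551 pairs of tested genes. The pairs share genes and are not independent: each of the 6 holds *Pecam1* or *Lyve1*. *Lyve1* over *Eng* was at 0.120, 0.092, 0.196 and 0.194 in *Rragc*+/+ and at 0.390, 0.310, 0.310 and 1.08 in *Rragc*S74N/+ replicates 1 to 4. *Pecam1* over *Eng* ranged from 0.167 to 0.490 in *Rragc*+/+ and from 0.496 to 1.39 in *Rragc*S74N/+ livers, a gap far smaller than the spread within a genotype. The other 4 were *Pecam1* over *Stab2* and over *Kdr*, and *Lyve1* over *Stab2* and over *Fcgr2b*. The 6 were picked out after their values were seen. Set against the mean log2 value of the general endothelial genes in the same liver, *Pecam1* and *Lyve1* had log2 fold changes of 0.81 and 0.97 and *Eng* of -0.65 (limma adjusted p = 0.973 for all 3).

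**Figure D4:**
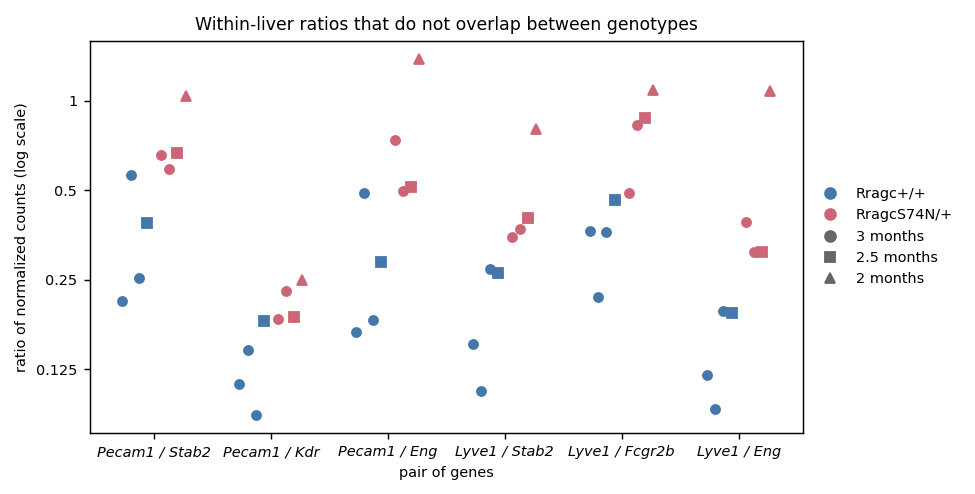
Ratio of normalized counts of 2 members within each liver (y axis, log scale) for the 6 pairs whose genotypes did not overlap (x axis), with symbols for age. *Rragc*S74N/+ livers lie above *Rragc*+/+ livers in every pair shown, by the narrowest gap for *Pecam1* over *Kdr* and *Pecam1* over *Eng*.

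Further endothelial genes were read from 5 lists that hold no member. Of their 58 genes, 53 were listed and 47 tested. No gene passed adjustment, 0 had an unadjusted limma p under 0.05, 22 had a positive and 25 a negative log2 fold change, and the median was -0.022. Among 13 other genes of sinusoidal endothelium, all tested, the 2 with the smallest p were *Maf*, a transcription factor of sinusoidal identity, at 577 ± 165 and 843 ± 348, and *Ehd3*, an endocytic recycling gene, at 1302 ± 150 and 1138 ± 236 (*Rragc*+/+ and *Rragc*S74N/+, SD, n = 4 each; limma adjusted p = 0.846 and 0.852). *Mrc1*, the mannose receptor, and *Dnase1l3*, a secreted nuclease, had log2 fold changes of -0.10 and -0.17. Of 22 general endothelial genes 19 were tested and 2 were not listed (*Sox18* and *Sox7*). Of the 19, 11 had a positive and 8 a negative log2 fold change, and the median was 0.099. The 2 with the smallest p, *Robo4* and *Ptprb*, were both on the lower side. *Robo4*, a guidance receptor of endothelium, was at 69.5 ± 8.65 and 48.2 ± 14.6 and did not overlap between genotypes, with 59.7, 53.3, 26.7 and 53.0 in *Rragc*S74N/+ replicates 1 to 4 and 62.2 or more in *Rragc*+/+ livers (log2 fold change -0.57, limma adjusted p = 0.846). *Ptprb*, the phosphatase of the angiopoietin receptor, was at 1076 ± 136 and 846 ± 159 (SD, n = 4 each; -0.36, limma adjusted p = 0.846).

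Position along the sinusoid was read from markers of its ends. Of 8 central vein side genes 6 were tested, 1 with a positive and 5 with a negative log2 fold change, and the median was -0.27. *Rspo3*, the R-spondin that sustains pericentral Wnt signalling, was at 43.1 ± 10.3 and 34.5 ± 8.91, and *Cdh13* at 45.0 ± 24.8 and 25.6 ± 13.9 (SD, n = 4 each; limma adjusted p = 0.854 and 0.846). *Wnt9b*, a pericentral Wnt ligand under the filter and so not tested, was at 1.86, 3.74, 0 and 2.80 in *Rragc*+/+ replicates 1 to 4. It was at 2.75, 8.89, 6.69 and 7.34 in *Rragc*S74N/+ replicates 1 to 4, higher on average. *Wnt2*, of the same list and tested, was lower on average in *Rragc*S74N/+, at 13.3 ± 7.37 and 9.96 ± 6.29 (*Rragc*+/+ and *Rragc*S74N/+, SD, n = 4 each; log2 fold change -0.48, limma adjusted p = 0.884). Of 6 portal side genes 5 were tested, with a median of 0.047. The 2 with the smallest p were *Ntn4*, at a log2 fold change of 0.14, and *Msr1*, at -0.16 (limma adjusted p = 0.905 and 0.911). Of 9 genes of large vessels and continuous endothelium 6 were listed and 4 tested, with a median of -0.043. *Ly6a* had a log2 fold change of 0.33 and the tight junction gene *Cldn5* of -0.43 (limma adjusted p = 0.852 for both).

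Hyaluronan is a ligand of stabilin-2 and of LYVE-1. Of 7 genes of its synthesis and turnover 4 were listed and tested, and the 3 synthase genes were not listed. *Cd44*, a hyaluronan receptor of leukocytes and other cells, was at 14.9, 17.8, 34.0 and 16.8 in *Rragc*+/+ and at 46.8, 37.3, 22.3 and 76.7 in *Rragc*S74N/+ replicates 1 to 4. Its log2 difference was 1.04, SE 0.42 (limma adjusted p = 0.846), and replicate 3 was once more the lowest *Rragc*S74N/+ liver. *Hyal1*, a lysosomal hyaluronidase, differed by -0.49 on the log2 scale (limma adjusted p = 0.846).

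**Figure D5:**
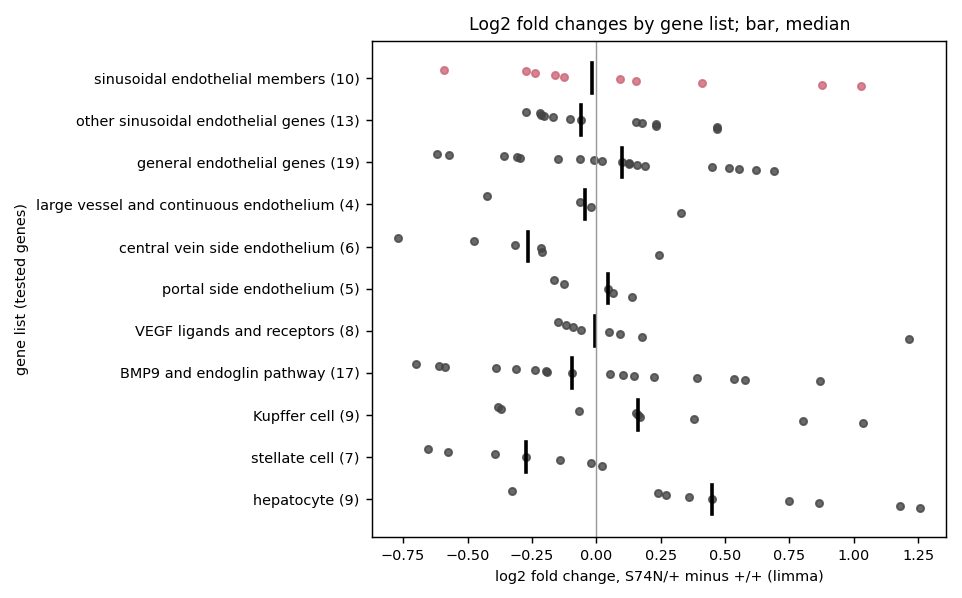
Log2 fold change of each tested gene (x axis, *Rragc*S74N/+ minus *Rragc*+/+) by list (y axis, number of tested genes in parentheses), with a bar at the median. The 10 members, in red, spread from -0.59 to 1.03 around a median of -0.016, and the medians of the other 5 endothelial lists shown lie between -0.27 and 0.10.

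Markers of neighbouring cell types were read beside the members, since whole liver was used. The summed level of 9 Kupffer cell markers was 3003 to 4751 in *Rragc*+/+ and 2977 to 4956 in *Rragc*S74N/+ livers. None of the 9 passed adjustment, 6 had a positive and 3 a negative log2 fold change, and the median was 0.16. *C1qc* and *Adgre1* had an unadjusted limma p under 0.05, with log2 fold changes of 1.03 and 0.80 (adjusted p = 0.846 for both). Over the 17 lists beside the members, 7 of 113 tested genes (6.19%) had such a p, against 5.17% of all tested genes. They were *Gdf2*, *Cd44*, *Adgre1*, *C1qc*, *Ecm1*, *Pck1* and *Kap*. The summed level of 9 stellate cell markers was 2152 to 2638 and 1783 to 2253. *Ecm1* was the stellate gene with the smallest p, at 354 ± 69.5 and 225 ± 44.5 (SD, n = 4 each; log2 fold change -0.65, limma adjusted p = 0.846), with no overlap between genotypes, and *Hgf* differed by -0.58 on the log2 scale (limma adjusted p = 0.846). *Colec11*, named after its values were seen, did not overlap either, at 126 to 152 and 103 to 125.3 (log2 difference -0.27, limma adjusted p = 0.846). Of 7 tested stellate genes 1 had a positive and 6 a negative log2 fold change, and the median was -0.27. Hepatocyte markers had a median log2 fold change of 0.45. The 2 with the smallest p were *Pck1* at 1.18 and *Cps1* at 0.87 (limma adjusted p = 0.846 for both), which were highest in the 2-month-old *Rragc*S74N/+ replicate 4. *Kap*, a kidney gene, was at 95.7 ± 45.4 and 24.6 ± 19.1 (SD, n = 4 each), with no overlap between genotypes and a log2 difference of -2.20 (limma adjusted p = 0.846). Of the other kidney markers, *Slc34a1* was at 8.17 ± 5.93 and 8.90 ± 6.55 and *Slc12a1* at 2.46 ± 2.34 and 2.52 ± 5.05 (SD, n = 4 each), both under the filter, and *Umod* and *Aqp2* were not listed. Of the 3 erythroid genes, which summed to 2588 to 6213 and 2551 to 7913, *Alas2* had the smallest p, at 566 ± 119.8 and 389.6 ± 132 (SD, n = 4 each; limma adjusted p = 0.846), with no overlap between genotypes. Whether any of these took part in the values of the members was not tested.

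The 5 genes whose level over the 8 livers was most like the mean profile of the members were *Il2rb*, *Hax1*, *Fam171a1*, *Galk2* and *H2-Q6*, with Pearson correlations of 0.95, 0.94, 0.92, 0.92 and 0.92 and Spearman correlations of 0.86, 0.93, 0.90, 0.88 and 0.90. They were chosen for this likeness among all tested genes, so the values are a description. The mean profile was taken over log2 deviations that were not scaled, so members with few reads weigh heavily in it. In *Rragc*S74N/+ replicate 3, *Oit3* was at -2.35 from 4 reads and *Gpr182* at -1.20 from 6 reads. *Il2rb* was itself low, from 1.11 to 27.7 normalized counts. Without *Rragc*S74N/+ replicates 3 and 2, the livers farthest from the median of the profile, the Pearson correlations over the remaining 6 were 0.91, 0.77, 0.91, 0.78 and 0.89.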

How the data were processed

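QuantSeq 3′ libraries of whole-liver RNA were sequenced on an Illumina NextSeq 550. Per the labels, the authors used TopHat2 2.0.10 with Bowtie 1.0.0 and SAMtools 0.1.19 on GRCm38, and counted by strand with HTSeq 0.6.1 against GENCODE. The deposited signal holds counts divided by a size factor (DESeq in the methods, DESeq2 in the processing notes) for 14506 genes. Every value (100%) was a whole multiple, within 0.001, of the smallest value above 0 of its liver, so whole reads were recovered, with size factors from 0.707 to 1.23. The 95% intervals come from limma and cover the spread between livers.

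Genes with a mean of at least 10 (11174) were tested with limma 3.58.1 in R 4.3.3 (mean-variance trend, log2(normalized count + 1), genotype as the only term) with Benjamini-Hochberg adjustment over all of them at 0.05. The added 1 weighs most on low counts, and it need not shrink a log2 fold change. With 0.1 added in its place the values were 0.38 for *Oit3* and 0.085 for *Gpr182*. With 5 added they were 0.46 and 0.11. edgeR 4.0.16 (quasi-likelihood) and DESeq2 1.42.0 were run on recovered reads as alternatives. Single genes also had an exact permutation test over the 70 labellings, whose smallest p is 0.0286. Groups came from the labels, which name no animals, so p-values measure the spread between these samples. Replicates are numbered by sample order. Named genes were the members and, from each other list, the 2 with the smallest p. *Acvrl1*, *Id1*, *Id2*, *Id3*, *Smad6*, *Smad7*, *Mrc1*, *Dnase1l3*, *Wnt2* and *Wnt9b* were added after their values were seen. The members and lists were chosen with earlier results of these data known. The limma test alone was run on simulated counts. It had to pass only where changes were larger than those of the members and the spread between replicates was smaller than here. That run does not show how well changes of the members' size would be found. Gene models are those of GENCODE M21, which may differ from the release the authors counted against. Their methods name more than a single release for GRCm38.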

Additional observations from a re-analysis of the deposited data

Results flagged for a closer look

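Values were examined for 29 quantities in each genotype, or 58 groups of 4 livers, for a liver far from the other 3 of its group. There were 2, where chance gives about 2.9. *Kdr* in *Rragc*+/+ replicate 2 had a log2 value of 9.35, where the other *Rragc*+/+ livers had 8.74 to 8.82. The summed level of the listed cholangiocyte markers in *Rragc*S74N/+ replicate 3 had a log2 value of 6.87, where the 3 other livers had 8.50 to 8.57. That sum was mostly *Sox9*, at 81.3 in this liver and 310 to 335 in its genotype otherwise, and *Sox9* was also low, at 106, in the other 2.5-month-old liver, *Rragc*+/+ replicate 4.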

How the results depend on the processing

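No member passed adjustment in any of the 8 fits that left out a liver or the other 15 settings, whose smallest adjusted p for *Pecam1*, *Lyve1* and *Oit3* was 0.256. The count over all tested genes was 1. It was 10 with DESeq2, 0 without the trend, 0 with age as a numeric covariate, 3 with age as a factor, 0 in 3-month-old mice, which are fewer, and 0 without the 2.5-month-old mice, a setting chosen after seeing the data. Leaving out a liver gave 0 to 2. The count of members with an unadjusted p under 0.05, 3 at first, was 1 with age as a numeric covariate and 1 with age as a factor, *Pecam1* both times, and 1 to 3 when a liver was left out. It was 1 without *Rragc*+/+ replicate 3 (*Lyve1*) and without *Rragc*S74N/+ replicate 4 (*Pecam1*).

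*Pecam1* kept a positive log2 fold change throughout, from 0.67 to 1.15, as did *Lyve1*, from 0.72 to 1.40, and *Eng* a negative one, from -0.81 to -0.24. *Clec4g* reversed to 0.0073 with age as a numeric covariate, *Stab2* to 0.053 in 3-month-old mice, and *Fcgr2b* to 0.13 in 3-month-old mice and 0.12 without the 2.5-month-old mice. When a liver was left out, *Fcgr2b* ran from -0.30 to 0.067 and *Gpr182* from -0.18 to 0.51. *Oit3* ran from 0.015 without *Rragc*S74N/+ replicate 1 to 1.26 without replicate 3, and was 0.92 with edgeR and DESeq2. The cause was not tested. The median over the members stayed between -0.17 and 0.16. Depth limits *Oit3* and *Gpr182*, with as few as 4 and 6 reads in a liver. No paired analysis was possible because replicates were numbered in the order of the samples, with nothing that ties a mouse of one genotype to one of the other.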
